A study of Mus musculus with 1989 samples.

Results

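The cells described here are 160 thymocytes with the highest transcript levels of 5 growth genes, called biosynthetic blasts below, of 1993 cells of the mouse thymus whose RNA was sequenced cell by cell in droplets (scRNA-seq). They were chosen by the highest mean deposited log2 value over Eif5a, Mif, Ran, Npm1 and Ranbp1, and made up 8.03% of the cells. The thymocytes came from 7-week-old male C57BL/6 mice without any treatment, sort or genetic change, and formed 1 library in which no animal is named for a cell. The study followed T cell development through this library, and developmental stages are not recorded per cell in the table used here. The blasts were therefore set beside 2 groups of the same library, namely 497 other cycling cells, with Mki67 and Top2a both above 0, and the rest, the 67.0% of cells that were neither blasts nor positive for both transcripts. With 1 library there were no replicates and no test was possible, so all differences below are descriptions. Moreover, the same values chose the cells, so that no difference between the groups is independent of the choice.

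T cell progenitors of the thymus start as CD4- CD8- double-negative (DN) cells and rearrange the T cell receptor β gene. Cells that make a working β chain signal through the pre-T cell receptor, grow, divide rapidly and pass through an immature single-positive (ISP) stage, which in mice carries CD8 before CD4, to become double-positive (DP) blasts. Growth at this transition is known to need the transcription factor Myc, which drives the synthesis of ribosomes, nucleotides and mitochondria. DP cells then stop dividing, rearrange the receptor α gene with the Rag recombinase, and are selected into CD4 or CD8 single-positive (SP) cells.

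The 5 genes that chose the blasts belong to this growth program. Eif5a encodes a translation factor that carries the modified amino acid hypusine, Npm1 encodes the nucleolar protein nucleophosmin, Ran encodes the GTPase of nuclear transport, Ranbp1 encodes a cofactor of Ran, and Mif encodes a cytokine with tautomerase activity. Eif5a (chr11:69916714-69921958, GRCm38) had a lowest, median and highest log2 value of 2.26, 3.71 and 4.84 in the blasts, against a median of 2.36 in other cycling cells and 1.47 in the rest. For Npm1 (chr11:33152287-33163206) the values were 2.60, 3.95 and 6.14 in the blasts, with medians of 2.31 and 2.14 in the other groups. Mif (chr10:75859353-75860240) had 1.19, 3.01 and 4.94, with medians of 1.24 and 0.69. The ranges of all 3 genes overlapped between the groups, since single cells among the other cycling cells reached 4.32 for Eif5a, 4.60 for Npm1 and 3.60 for Mif. Ran (chr5:129020069-129024323) had a lowest value of 1.64, a median of 3.34 and a highest value of 4.52 in the blasts, beside medians of 2.71 and 0.92. Ranbp1 (chr16:18239784-18248732) had a median of 2.78 and a highest value of 3.95 in the blasts, with medians of 1.78 and 0, and was detected in 99.4% of the blasts. Among the 5, Ran was the gene for which other cycling cells came closest to the blasts.

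The blasts form the upper end of a range, not a separate cluster of values. The mean over the 5 genes ran from 3.01 to 4.04 in the blasts, and its median over all cells was 1.40. The last cell taken had 3.01169 and the first cell left out 3.00386. Within 0.1 of this limit lay 27 members above it and 26 cells below it.

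**Figure D1:**
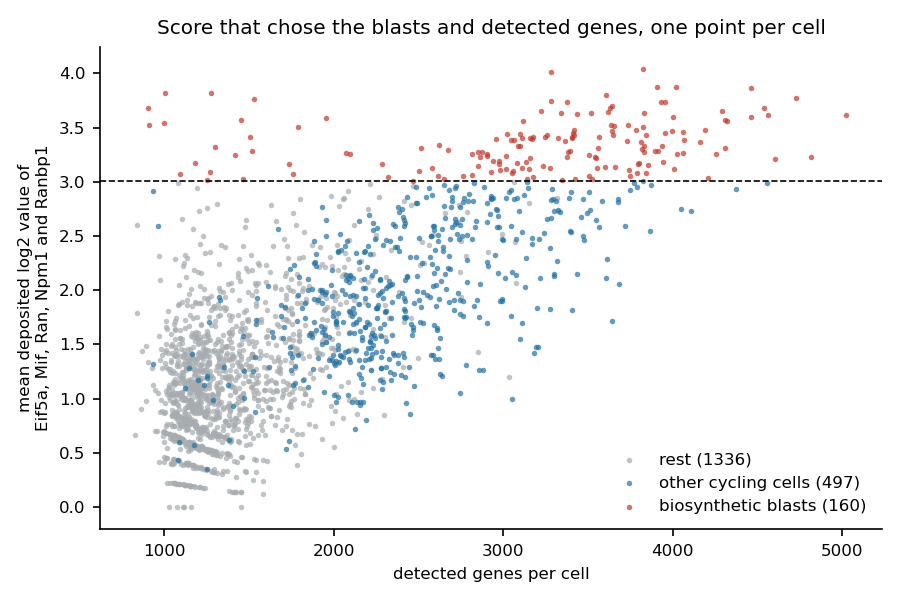
Each point is 1 of the 1993 cells, with its number of detected genes on the horizontal axis and the mean deposited log2 value of the 5 genes on the vertical axis; the dashed line is the limit between the last cell taken and the first left out. The 160 blasts reach from 903 to 5025 detected genes, and no gap in the score separates them from the cells below the line.

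Sequences upstream of 3 of these genes are shown because Myc with its partner Max binds the E-box, written CACGTG, which reads the same on both strands. The windows are from RefSeq (GRCm38.p6), end at the annotated start site or before the nearest annotated exon, run 5′ to 3′ on the gene's strand, and have the E-box in capitals. The windows of Ran and Eif5a shown carried the letters, while the window of Mif carried none.
Ran, chr5:129019906-129020068, plus strand: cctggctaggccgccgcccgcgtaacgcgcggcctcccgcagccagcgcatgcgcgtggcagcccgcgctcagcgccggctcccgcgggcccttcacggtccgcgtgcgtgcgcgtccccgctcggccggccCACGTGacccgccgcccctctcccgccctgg
Eif5a, chr11:69921387-69921636, minus strand: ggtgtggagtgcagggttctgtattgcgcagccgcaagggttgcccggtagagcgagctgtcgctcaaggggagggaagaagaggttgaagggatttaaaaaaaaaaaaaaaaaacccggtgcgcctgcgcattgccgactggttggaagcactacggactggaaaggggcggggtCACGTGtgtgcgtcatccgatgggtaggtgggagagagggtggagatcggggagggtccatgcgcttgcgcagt
Mif, chr10:75860278-75860527, minus strand: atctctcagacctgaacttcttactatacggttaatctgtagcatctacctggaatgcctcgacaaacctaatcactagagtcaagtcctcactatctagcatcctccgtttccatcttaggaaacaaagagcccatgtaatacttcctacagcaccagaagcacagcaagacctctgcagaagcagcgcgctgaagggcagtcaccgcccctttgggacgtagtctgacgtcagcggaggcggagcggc

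In Ran the E-box began 118 bases before the RefSeq start site, which lies inside the gene span given above, so that the sequence shown stops where that span begins, and in the window of Eif5a shown it began 74 bases before. Some windows of Eif5a overlap one another, and 3 of the 6 held the letters. The first window of Eif5a, upstream of the longest transcript, held none, and the window shown lies upstream of a start site inside the gene. The window of Ranbp1 held none either, and 4 of the 5 rule genes were matched to RefSeq windows. Of all 32851 RefSeq windows of 250 bases, 1978 (6.02%) held the letters. Counted per gene over all its windows, 36 of 272 matched genes that were higher in the blasts than in other cycling cells held an E-box (13.2%), compared with 32 of 366 lower genes (8.74%) and 11.3% of 2114 matched genes among those tested. Higher genes had 1.20 windows per gene and lower genes 1.36. These are matches of letters, and binding was not measured here.

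Blasts had more detected genes per cell than the other groups, with a median of 3370.5 (range 903 to 5025), compared with 2342 in other cycling cells (931 to 4554) and 1272.5 in the rest (830 to 3324). The ranges overlapped, and 20 blasts had under 2000 genes. Of the 7 cells with over 4500 genes, 6 were blasts. The paper's quality control names 4500 detected genes as an upper limit, together with a mitochondrial limit, and these cells were kept here. Over all cells Pearson's r of the score with the number of detected genes was 0.75, a description in which both measures share the depth of the cell, and within the blasts it was 0.17. Doublets, droplets that hold a pair of cells, were not called, and their part in these values was not tested. Because depth differed, levels were compared in steps: the lowest nonzero value of a cell counts as 1 step, the next higher value as 1 more, and so on. A step stands in for a count of molecules and understates highly expressed genes. The blasts had a median of 9696.5 steps per cell, other cycling cells 5263 and the rest 2073.5. From each cell 1300 steps were drawn at random (thinned), and a gene was called higher or lower where its steps per cell differed by at least 1.5 times and the mean log2 values differed in the same direction. A depth window served as a second view: of the cells with a total between 7776.25 and 12707.2 steps, the quartiles of the blasts, 80 blasts and 77 other cycling cells were thinned to 7700 steps. Only 6 cells of the rest lay in this window, and no value is given for them.

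The label was checked against the ISP stage, which the study defines by Cd8 and Mki67 without Cd4, and the coreceptors met this definition only in part. Of the 160 blasts, 71.3% (exact binomial 95% interval 63.6 to 78.1) had a thinned step for Cd8a or Cd8b1 and none for Cd4, compared with 67.0% (62.7 to 71.1) of other cycling cells. The share without either coreceptor was 18.1% (12.5 to 25.0) in the blasts and 4.02% (2.48 to 6.15) in other cycling cells. A step for Cd4 was found in 10.6% (6.31 to 16.5) of the blasts, 29.0% (25.0 to 33.2) of other cycling cells and 35.1% (32.5 to 37.7) of the rest. After thinning the blasts therefore had the lowest share with Cd4, and also a lower share with Cd8a or Cd8b1, 78.1% (70.9 to 84.3) against 95.4% (93.1 to 97.0) in other cycling cells. Without thinning, Cd4 was above 0 in 52.5% of the blasts, 70.0% of other cycling cells and 49.2% of the rest, and Cd8a or Cd8b1 in 99.4%, 99.6% and 93.2%. In the depth window Cd4 was found in 45.0% (33.8 to 56.5) of the blasts and 58.4% (46.6 to 69.6) of other cycling cells, with overlapping intervals, and Cd8a or Cd8b1 in all cells of both groups. Cells without either coreceptor were 0 of the blasts and 0.40% of other cycling cells without thinning. Mki67, a marker of proliferation, was above 0 in 109 blasts (68.1%), and 103 (64.4%) had both Mki67 and Top2a.

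Free RNA in droplets can give steps for coreceptors in cells that do not make them, so these shares were set beside those of 2 clusters led by genes of other cell types. Some dendritic cells and nonconventional lymphocytes transcribe Cd8a or Cd4 themselves, so that these shares are no measure of free RNA alone. Clusters were rebuilt from the table, and cluster 16, 36 cells led by the MHC class II genes Cd74, H2-Aa and H2-Eb1 of antigen-presenting cells, had Cd4 in 13.9% (4.67 to 29.5), Cd8a in 44.4% (27.9 to 61.9) and Cd8b1 in 66.7% (49.0 to 81.4) of its thinned cells. Its median was 2407.5 steps per cell, against 9696.5 in the blasts. The blasts had Cd4 in 10.6%, Cd8a in 48.1% (40.2 to 56.2) and Cd8b1 in 68.8% (61.0 to 75.8). Cluster 17, 31 cells led by AW112010, Id2 and Nkg7 of nonconventional lymphocytes, had shares of 12.9%, 29.0% and 45.2% at a median of 1938 steps. After thinning, the Cd4 share of the blasts was thus no higher than in either cluster, and their Cd8 shares lay within the intervals of cluster 16. Per cell and without thinning, the blasts held more coreceptor steps than cluster 16, with 5.71 (exact Poisson 95% interval 5.34 to 6.09) against 1.56 (1.18 to 2.02) for Cd8a, 8.05 (7.62 to 8.50) against 3.97 (3.35 to 4.68) for Cd8b1 and 0.81 (0.67 to 0.96) against 0.36 (0.19 to 0.62) for Cd4. In cluster 17 the values were 0.81, 0.97 and 0.23. Thinning draws a smaller part of the steps of a deep cell than of a shallow one, and the part of free RNA in these values was not tested. Other cycling cells had 9.49 steps of Cd8a, 12.8 of Cd8b1 and 1.25 of Cd4 per cell. Since the coreceptor shares moved with depth in this way, the cells are called biosynthetic blasts and not ISPs.

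**Figure D2:**
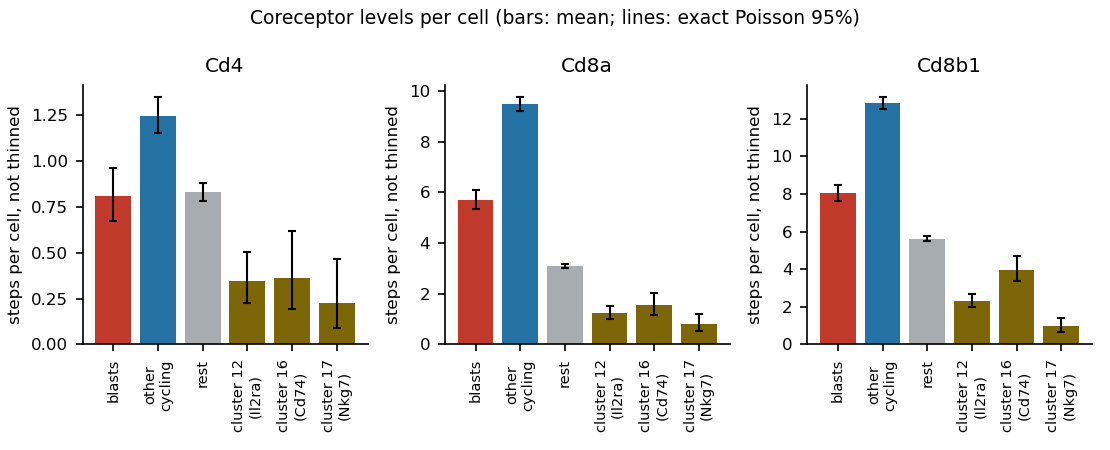
Bars give the mean number of steps per cell without thinning for Cd4, Cd8a and Cd8b1 (vertical axes, each from 0) in the blasts, other cycling cells, the rest and 3 rebuilt clusters, and lines give exact Poisson 95% intervals, which cover counting error only. For Cd8a the blasts have 5.71 steps, between the 9.49 of other cycling cells and the 1.56 of the Cd74 cluster, while for Cd4 the blasts have 0.81.

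Against other cycling cells, 22 of 34 genes of ribosome biogenesis, 10 of 19 of mitochondrial import and 20 of 49 chaperones were higher in the blasts (19, 7 and 7 in the depth window), whereas 30 of 37 mitosis genes and 13 of 16 DP genes were lower (34 and 6). Of 2662 genes tested, 334 (12.5%) were higher and 461 (17.3%) lower. A gene was tested only with a minimum number of thinned steps over all cells, called the floor. Of the 2662 genes, 644 reached the floor through other cycling cells alone, which favours a low ratio. Among the other 2018 genes, 263 were higher and 320 lower. In the depth window 179 (6.72%) were higher and 297 (11.2%) lower. Of the 334 higher genes, 314 had a ratio above 1 in the window and 127 were called there, and of the 461 lower genes, 433 had a ratio below 1. The median ratio over all genes tested was 0.96, and 0.98 in the window. Called instead by a difference of 0.5 in the mean deposited log2 values, without thinning, 148 genes were higher and 46 lower, so that 76.3% of calls were higher in place of 42.0%.

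Ribosome biogenesis was the list with the highest median ratio in this comparison. Its 86 genes in the table summed to 24.5 thinned steps per blast (23.7 to 25.3), 11.6 per other cycling cell (11.3 to 11.9) and 11.9 per cell of the rest (11.7 to 12.0). Single blasts ranged from 10 to 48, and single other cycling cells from 0 to 32, so that the groups overlapped. Without Npm1, which chose the cells, the sums were 20.0, 9.85 and 10.0. Of its 34 members tested, 22 were higher and none lower, with a median ratio of 1.88, and in the window 19 were higher with a median of 1.54. Without Npm1, 21 of 33 were higher with a median of 1.73, and 18 in the window with 1.51. Ddx21, an RNA helicase of ribosomal RNA processing, had 0.43 steps per blast and 0.11 per other cycling cell, a ratio of 3.83 (2.65 to 5.55) that was 2.18 in the window. Gar1 and Nhp2, proteins of the H/ACA particles that direct pseudouridylation, had ratios of 3.75 and 3.13 (1.86 and 1.83 in the window). Gnl3, which encodes the nucleolar GTPase nucleostemin, had a ratio of 3.67 (2.41 to 5.62), and 2.84 in the window. Ncl, which encodes nucleolin, was detected in all blasts, with a lowest, median and highest log2 value of 1.07, 2.73 and 4.67 and a ratio of 2.40 (2.09 to 2.77). Nolc1 and Fbl, of the box C/D and nucleolar machinery, had ratios of 3.04 and 2.95. Thus both kinds of small nucleolar particle were among the higher genes. Emg1, a methyltransferase of the small ribosomal subunit, had 0.72 steps per blast and 0.73 per other cycling cell and was called in neither direction.

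**Figure D3:**
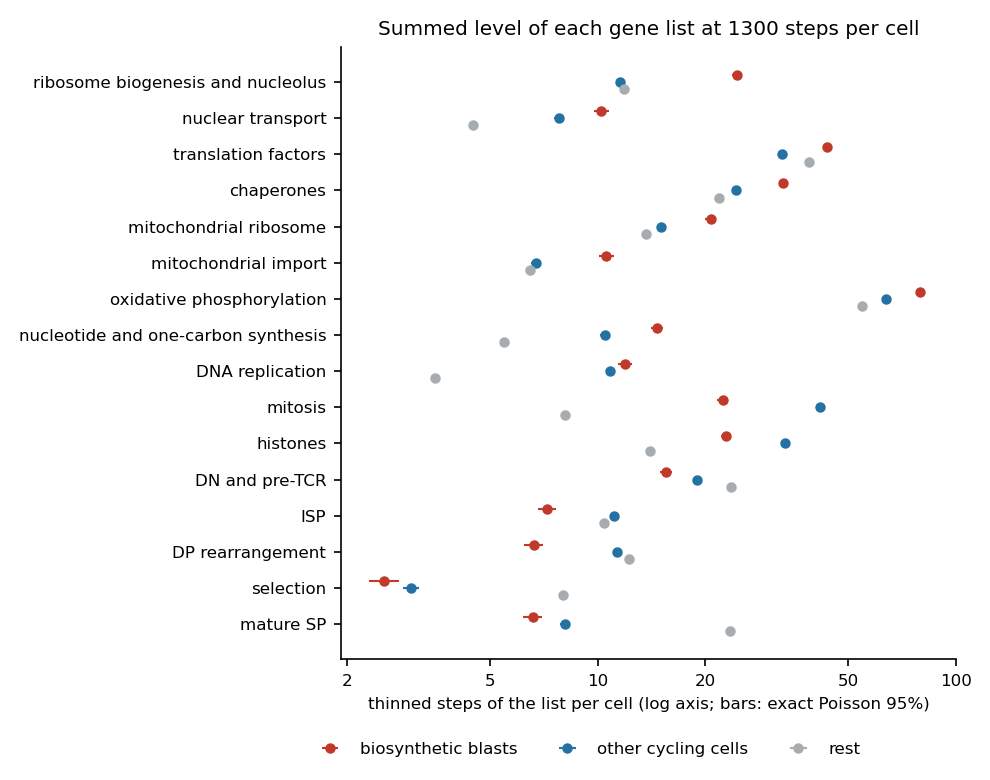
Points give the summed thinned steps per cell (log axis) of 16 gene lists in the blasts, other cycling cells and the rest, with exact Poisson 95% intervals. Ribosome biogenesis stands at 24.5 steps per blast against 11.6 and 11.9, and mitosis at 22.3 against 41.6 and 8.13.

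Translation and protein folding showed smaller ratios. Among translation factors, 17 of 47 were higher and none lower, with a median ratio of 1.33 (1.31 in the window; without Eif5a 16 of 46 and a median of 1.32), and they summed to 43.6 steps per blast, 32.8 per other cycling cell and 38.8 per cell of the rest. Eif5a, which chose the cells, led this list at 2.49, followed by the elongation factor subunit Eef1g at 2.18, while the elongation factor Eef1a1 had a ratio of 0.98. Of 6 aminoacyl-tRNA synthetase genes tested, 2 were called higher (Eprs 1.75, Qars 1.63 with an interval of 0.91 to 2.83), and none in the window, where they were at 1.08 and 1.29. The median over the 6 was 1.40. Chaperones had 20 of 49 members higher and 3 lower, with a median ratio of 1.36, and in the window 7 were higher and none lower with a median of 1.23. Hspe1 and Hspd1, the cochaperone and chaperonin of the mitochondrial matrix, had ratios of 3.07 and 2.98 (1.91 and 2.84 in the window). Hsp90ab1, a cytosolic chaperone, had 4.03 steps per blast and 2.15 per other cycling cell. Cct3 of the cytosolic chaperonin had a ratio of 2.68. Of 40 proteasome genes, 8 were higher, none was lower, and the median ratio was 1.20, while in the window 2 were higher with a median of 1.08, a share not above that of all genes tested.

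Mitochondrial genes were higher or not called, and none of those in the 3 lists tested was lower. Of 19 genes of protein import, 10 were higher and none lower, with a median ratio of 1.57 (1.31 in the window), led by the intermembrane chaperone Timm8a1 at 3.38 and the prohibitin Phb at 2.91. Of 54 genes of the mitochondrial ribosome, 22 were higher and none lower, with a median of 1.36, while in the window 7 were higher with a median of 1.22. Of 75 genes of oxidative phosphorylation, 9 were higher and none lower, with a median of 1.23 and 1.10 in the window, where 3 were higher, so that the share of higher genes in this list was not above that of all genes tested (12.5%, and 6.72% in the window). Atp5g1, a subunit of ATP synthase, had a ratio of 2.90, whereas Cox4i1 of cytochrome oxidase was at 1.03. C1qbp, a protein of the mitochondrial matrix, was outside these lists and had a ratio of 3.88 (2.82 to 5.37), and 2.71 in the window. Oxidative phosphorylation summed to 79.2 steps per blast, 63.8 per other cycling cell and 54.6 per cell of the rest.

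Metabolic genes showed opposite directions within families. Of 9 glycolysis genes tested, 3 were higher and 1 lower, and in the window 2 were higher and none lower. Ldha, the lactate dehydrogenase subunit of glycolytic cells, had a ratio of 2.02, and Ldhb, the other subunit, had 0.35, which was 0.72 in the window. Pgam1 and Tpi1, of lower and middle glycolysis, had 2.69 and 2.65, and Gapdh had 1.21. Of 25 genes of nucleotide and one-carbon synthesis, 8 were higher and 2 lower, and in the window 6 were higher and 1 lower. The nucleoside diphosphate kinase gene Nme1 had 1.59 steps per blast and 0.56 per other cycling cell, and Dctpp1, which hydrolyses modified dCTP, had 0.76 and 0.32. Rrm2 and Rrm1, the subunits of ribonucleotide reductase, had ratios of 0.65 and 0.63, which were 0.73 and 0.93 in the window, so that within this list the kinase and the reductase lay on different sides. Of 5 polyamine genes tested, none was higher and Sat1, which breaks polyamines down, was called lower at 0.60 (0.28 to 1.15, 11 steps in the blasts) but not in the window, where it was at 0.79. Of 2 genes tested for cholesterol and fatty acid synthesis, none was called.

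Nuclear transport, the list that holds Ran and Ranbp1, was higher in some members only. The list had 5 higher genes and 2 lower ones among 12 tested, with a median ratio of 1.08 (1.20 in the window). Ran and Ranbp1 were counted among the 5, and without them 3 of 10 were higher and 2 lower, with a median of 1.02. Rcc2, a regulator of chromosome condensation, had a ratio of 2.18 and Nutf2, which carries Ran into the nucleus, 1.66, while Kpna2, an importin that peaks in mitosis, was lower at 0.39. Without Ran and Ranbp1 the list summed to 5.38 steps per blast and 4.83 per other cycling cell.

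Myc was found in a larger share of the blasts than of other cycling cells or the rest, at low levels. It had a thinned step in 20.0% (14.1 to 27.0) of the blasts, 4.23% (2.63 to 6.39) of other cycling cells and 5.76% (4.57 to 7.15) of the rest. In cluster 16 the share was 2.78%, at the lower depth given above. In cluster 12, 78 cells that held no blast, it was 16.7% (9.18 to 26.8) at a median of 3633 steps. That interval overlapped the interval of the blasts. The blasts held 39 thinned steps of Myc and the other cycling cells 21, a ratio of 5.77 (3.31 to 10.3) that was 2.87 in the window, where 66.3% and 32.5% of cells had a step. Myc had too few steps over all cells, fewer than 200, to enter the calls. Odc1, the rate-limiting enzyme of polyamine synthesis and a known Myc target, likewise had too few, with a step in 26.3% (19.6 to 33.8) of the blasts and 6.64% (4.61 to 9.20) of other cycling cells. Slc7a5, an amino acid transporter, was found in 9.38% and 2.21%. Of the 3 partner genes tested, none was higher, and Mxd3 and Mxd4, which encode antagonists of Myc for binding Max, were lower at 0.35 and 0.61, while Max was at 1.35. Mxd4 was at 0.80 in the window. Mxd3 had 22 steps in the blasts, 194 in other cycling cells and 54 in the rest. It thus reached the floor of 200 steps only through other cycling cells, which favours a low ratio.

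Mitosis genes were lower in the blasts than in other cycling cells, and replication genes differed little. DNA replication genes summed to 12.0 steps per blast (11.4 to 12.5), 10.9 per other cycling cell (10.6 to 11.1) and 3.53 per cell of the rest, and 5 of 22 were higher and none lower, and in the window 1 was higher with a median ratio of 1.05. The higher genes included the helicase subunits Mcm6 and Mcm3 at 1.70 and 1.67 and the clamp loader subunit Rfc4 at 1.64, which was 0.97 in the window. Pcna, the sliding clamp, had 1.04 steps per cell in both cycling groups. Mitosis genes, by contrast, summed to 22.3 steps per blast (21.6 to 23.1) and 41.6 per other cycling cell (41.1 to 42.2), with ranges of 2 to 56 and 3 to 91 in single cells. Of 37 tested, 30 were lower and none higher, with a median ratio of 0.49, and in the window 34 were lower with a median of 0.47. The floor was reached by 20 of the 37 through other cycling cells alone, and 14 of the other 17 were lower with a median of 0.49. The choice of the other cycling cells by Mki67 and Top2a, both members of this list, bears on this difference, since 57 blasts lacked 1 or both. Cenpf, a kinetochore protein, had a ratio of 0.25 (0.17 to 0.35), Arl6ip1 0.29 and Kif22, a chromosome-associated kinesin, 0.19. In the window these ratios were 0.29, 0.29 and 0.38. Cenpf and Kif22 were among the 20 genes that reached the floor through other cycling cells alone, which favours a low ratio. Of 11 histone genes, 6 were lower, among them Hist1h2ap at 0.53, and near-identical histone copies may share reads.

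Regulators of G1 also pointed in different directions. Cdk6 and Cdk4, the kinases that act with D cyclins, had ratios of 2.78 and 2.08 (1.39 and 1.70 in the window). Cyclin D3 (Ccnd3), the D cyclin needed for pre-T cell receptor growth, was lower at 0.55, and the kinase inhibitors Cdkn2c, Cdkn2d and Cdkn1b were lower at 0.27, 0.28 and 0.34. The antiproliferative genes Btg2 and Btg1 had ratios of 0.33 and 0.38. Of 13 genes of this list, 3 were higher and 7 lower. Ccnd2 had a ratio of 1.37 with an interval of 0.79 to 2.30. Ccnd1 had no thinned step in the 160 blasts and 2 in the other cycling cells, too few to compare.

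The DN genes did not differ in 1 direction, and Gzma, Plac8 and the γ chain genes are given here because they were among the 15 highest ratios. Gzma, which encodes granzyme A, had a step in 50.0% (42.0 to 58.0) of the blasts, 16.9% (13.7 to 20.5) of other cycling cells and 13.7% (11.9 to 15.7) of the rest, with shares of 8.33% in cluster 16 and 16.1% in cluster 17. In cluster 12 the share was 38.5% (27.7 to 50.2), an interval that overlapped that of the blasts. The ratio of Gzma was 3.70 (2.90 to 4.72), and 2.84 in the window. Plac8 had a step in 40.6% (32.9 to 48.7), 7.44% (5.30 to 10.1) and 11.6% (9.93 to 13.4), but also in 38.9% of cluster 16 and 87.2% of cluster 12, 78 cells that held no blast and were led by Plac8, Myl10, Crip1, Tcrg-C2, Cdk6 and Tcrg-C1, and its ratio of 3.89 was 1.87 in the window. The constant genes of the receptor γ chain, Tcrg-C1 and Tcrg-C2, had ratios of 3.22 (1.83 to 5.68) and 3.59 (2.18 to 5.96), which fell to 1.35 and 1.48 in the window, and their near-identical sequences leave the share of each uncertain. In the window the ratio of Gzma was thus above that of either γ gene. Trdc, the δ constant gene, was at 1.43 and called in neither direction. Il2ra, which defines the DN stage before β-selection, was found in 3.13% of the blasts, 5 cells, 1.41% (0.57 to 2.88) of other cycling cells and 4.19% (3.18 to 5.41) of the rest. With 6 steps in the blasts and 7 in other cycling cells, its ratio was 2.66 (0.74 to 9.25). Ptcra, the pre-T cell receptor α chain, was at 0.98, Notch1 at 1.28 and Cd24a, a surface protein of immature thymocytes, was higher at 1.68. Of the 15 DN genes tested, 4 were higher and 3 lower, with a median ratio of 0.86, and in the window 1 was higher and none lower. The list summed to 15.6 steps per blast, 18.9 per other cycling cell and 23.5 per cell of the rest. Its members below 1 included Cd3e at 0.65 (0.53 to 0.79), Trbc1 at 0.68 (0.62 to 0.75) and Trbc2 at 0.77 (0.72 to 0.83). Of the 9 ISP genes, 2 were higher, Cd24a and Lef1 (1.53, but 0.87 in the window), and 4 lower, of which Mki67 at 0.56 had been used to choose the other cycling cells, with Cd8a at 0.33 and Cd8b1 at 0.37 (0.47 and 0.53 in the window).

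DP genes were lower as a group. Of 16 tested, 13 were lower and none higher, with a median ratio of 0.61 (0.70 in the window), and in the window 6 were lower. The list summed to 6.64 steps per blast, 11.3 per other cycling cell and 12.2 per cell of the rest. Rag1 and Rag2, the recombinase, had ratios of 0.42 and 0.42, and Trac, the receptor α constant gene, 0.41. Dntt, the terminal transferase, was at 0.56. Cd4 was at 0.31 (0.18 to 0.51), and at 0.70 in the window.

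Genes of selection and of mature cells were mixed against other cycling cells, and 2 directions depended on depth. Itm2a, which rises at positive selection, was called higher at 1.75 (1.12 to 2.70) but had a ratio of 0.71 in the window. Gata3, a transcription factor of the CD4 lineage, was likewise at 1.74 and 0.97. Ikzf2, which encodes Helios, had a ratio of 3.18 and 1.49 in the window, with 64 of its 89 steps in the 57 blasts that were not cycling. With only the blasts of clusters 10 and 15, a setting added once the data had been seen, its value was lower than in the window. Ccr9, a chemokine receptor of DP cells, was lower at 0.33, and Cd27 at 0.62. Of 12 selection genes, 3 were higher and 5 lower, and in the window none was higher and 4 were lower, with a median ratio of 0.72. Of 15 genes of mature SP cells, 1 was higher and 4 lower, and in the window none was higher and 4 were lower.

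Snhg3, a host transcript of a small nucleolar RNA, and Gtpbp4, a GTPase of ribosome assembly, completed the 15 highest ratios with 3.43 and 3.11. The 15 lowest ratios, apart from the mitosis genes and those below, came from sparse genes that passed the floor of 200 steps through the other groups: Rnf145 and Gramd1a had 2 thinned steps each over all blasts and ratios of 0.16 (0.02 to 0.60) and 0.17 (0.02 to 0.65), and Gm26740 had 1 step with a ratio of 0.24 (0.01 to 1.59). Tsc22d3, Slc7a11, Zbtb20 and D16Ertd472e had 3 steps each, with ratios from 0.19 (0.04 to 0.59) to 0.25 (0.05 to 0.77). Tube1, Dhrs3, A430106G13Rik and Klf7 had 5 or 4. Better covered were Ptms, which encodes parathymosin, at 0.19 (0.12 to 0.30) with 21 steps, and Epsti1 at 0.25 (0.13 to 0.45) with 12. Their ratios in the window were 0.33 and 0.37.

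Against the rest, genes of division and of biosynthesis were higher in the blasts and genes of mature cells lower. Of the 2662 genes, 586 (22%) were higher and 700 (26.3%) lower, with a median ratio of 0.94, and by the log2 difference 498 were higher and 44 lower (91.9% of calls higher in place of 45.6%). DNA replication had 22 of 22 members higher with a median ratio of 3.26, and mitosis 33 of 37 with 3.24. The highest ratios were those of Mki67 at 8.22 (5.73 to 11.8), the chromatin remodeller Hells at 8.07 (5.53 to 11.8), Dctpp1 at 6.98, the thymidine kinase Tk1 at 6.89, Hist1h2ap at 6.79, the PCNA-associated factor Pclaf at 6.74, Hist1h2ae at 6.46 and the kinase Aurkb at 6.42. Mki67 also took part in defining the groups. Hells, Tk1 and Aurkb reached the floor of 200 steps only with their steps in the blasts, which favours a high ratio. Ribosome biogenesis had 21 of 34 members higher with a median of 1.90, a value close to that against other cycling cells, and nucleotide synthesis had 17 of 25 with 2.13. Oxidative phosphorylation had 36 of 75 members higher (1 lower), the mitochondrial ribosome 26 of 54, chaperones 24 of 49 (2 lower) and translation factors 19 of 47. All 15 tested genes of mature SP cells were lower, with a median of 0.24, as were 10 of 12 selection genes with 0.26. Of the members tested, 10 SP and 9 selection genes reached the floor through the rest alone, which favours a low ratio, and the other 5 and 3 were all lower with medians of 0.26 and 0.27. Of all genes tested, 1810 of 2662 reached it in this way, and among the other 852 genes 314 were higher and 101 lower. Cd52, a surface glycoprotein of lymphocytes, had 0.57 steps per blast and 4.11 per cell of the rest, and Tmsb10, a thymosin, 1.78 and 6.87. The 8 lowest ratios were those of Id2, Ms4a4b, Gm12840, Tecpr1, Tnfaip8l2, Gramd1a, Rnf145 and Gm26740, with 1 to 8 steps over all blasts, and these genes passed the floor of 200 steps over all cells through their steps in the rest, so that their ratio had to be low and nothing is read from it.

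The blasts were split by Mki67 and Top2a, both members of the mitosis list, so that its difference between the cycling and the other blasts is a description of the split. The 103 blasts with Mki67 and Top2a summed to 23.8 steps (22.9 to 24.8) of ribosome biogenesis per cell and the 57 others to 25.8 (24.5 to 27.1). For replication the sums were 12.5 (11.8 to 13.2) and 10.9 (10.1 to 11.8), compared with 3.53 in the rest, but single cells of the 57 went down to 2. Mitosis genes differed more, with 26.0 (25.0 to 27.0) against 15.7 (14.7 to 16.8). Of the 2662 genes, 404 (15.2%) were higher in the cycling blasts and 257 (9.65%) lower (39 and 2 by the log2 difference, 95.1% of calls higher in place of 61.1%), and 29 of 37 mitosis genes and 2 of 34 ribosome biogenesis genes were among the higher ones. Hist1h2ap had a ratio of 3.81 and Ube2s, an enzyme of mitotic ubiquitination, 1.83. Gzma had 0.91 steps per cycling blast and 0.98 per other blast, and Myc was found in 21.4% and 17.5%. The cycling blasts were deeper, with a median of 3636 detected genes against 2865, and the part of depth in finding Mki67 and Top2a was not tested. Tmsb10, Cd2 and Ikzf2 were lower in the cycling blasts at 0.46, 0.25 and 0.22.

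**Figure D4:**
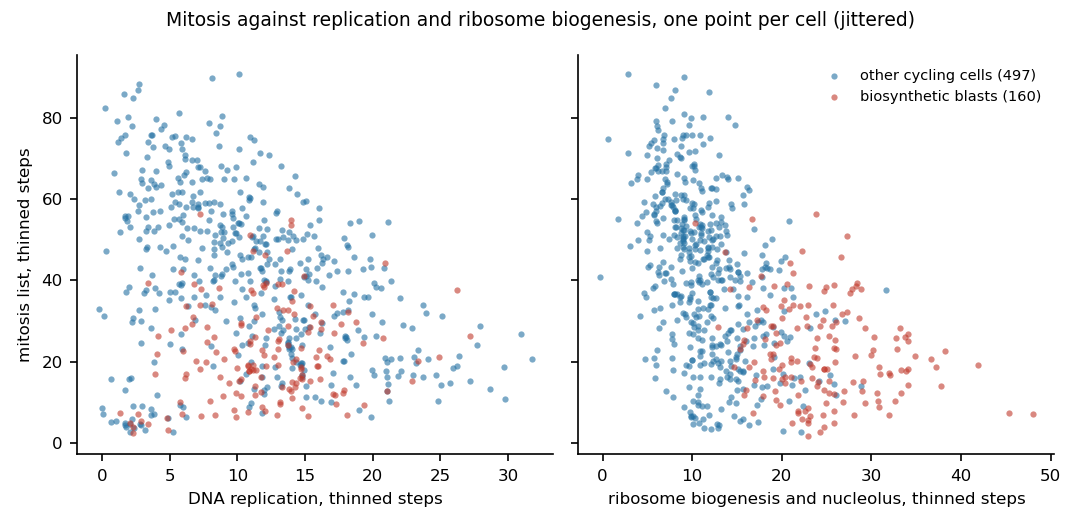
Each point is a cell, with thinned steps of the mitosis list on the vertical axis and of the replication list (left) or the ribosome biogenesis list (right) on the horizontal axis, with a small random shift. The 160 blasts lie within the replication range of the 497 other cycling cells, reach at most 56 steps of mitosis where other cycling cells reach 91, and lie to the right for ribosome biogenesis, from 10 to 48 steps.

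The blasts were spread over several rebuilt clusters, which were built from the same values and are described only. Clusters 10 and 15 held 123 of them (76.9%). Cluster 10, 98 cells led by H2afz, Hmgb2, Eif5a, Ptma, Mif and Ran, contained 81 blasts with a median of 3177 detected genes, 43 of them cycling. Cluster 15, 65 cells led by Hist1h2ap, Hmgb2, H2afz and Ube2c, contained 42, of which 41 were cycling, with a median of 3948 genes. Gzma had a step in 69.1% (57.9 to 78.9) of the blasts of cluster 10 and 40.5% (25.6 to 56.7) of those of cluster 15, and Plac8 in 55.6% and 33.3%. Myc was found in 27.2% and 19.0%. Ribosome biogenesis summed to 25.3 and 22.8 steps per cell, and mitosis to 16.9 and 34.1. Another 18 blasts lay in cluster 6, led by Hmgb2, Pclaf and H2afz, and 8 in cluster 3, with 1 each in clusters 4 and 5.

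A further 9 blasts were unlike the others in stage genes. They lay in cluster 14, led by Tmsb10, Ifi27l2a and Ikzf2, and had a median of 1956 detected genes. In these cells the mature SP list summed to 19.4 steps and the selection list to 12.3, compared with 5.85 and 1.78 in the blasts of cluster 10, while mitosis was 5.44 and replication 3.89. None of them had a thinned step for Gzma, Trdc or Cd4, and Itm2a was found in 44.4% and Cd69 in 33.3%. Their ribosome biogenesis sum of 28.6 steps was not below that of the blasts in the other clusters. Cluster 12, which had Il2ra in 51.3% of its cells, held no blast, although Gzma was found in 38.5% and Myc in 16.7% of its cells.

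Along the score, ribosome biogenesis fell from each group of 80 cells to the next, and the shares with Gzma and Plac8 differed most between the groups on either side of the limit of the blasts, with overlapping intervals. Ribosome biogenesis without Npm1 summed to 22.1 steps per cell in ranks 1 to 80, 18.0 in ranks 81 to 160, 14.5 in ranks 161 to 240 and 12.7 in ranks 241 to 320. The share of cells with Gzma was 51.3% (39.8 to 62.6), 48.8% (37.4 to 60.2), 28.8% (19.2 to 40.0) and 17.5% (9.91 to 27.6). Plac8 was found in 42.5% (31.5 to 54.1), 38.8% (28.1 to 50.3), 20.0% (11.9 to 30.4) and 17.5% (9.91 to 27.6). For Myc the shares were 25.0%, 15.0%, 8.75% and 5.00%. Mitosis genes went the other way, with 21.0, 23.7, 24.8 and 28.2 steps. Cd8a rose from 40.0% to 71.3% of cells over the same 4 ranks, and its intervals of 29.2 to 51.6 and 60.0 to 80.8 did not overlap. Cd4 stood at 16.3%, 5.00%, 10.0% and 17.5%, with overlapping intervals. Median detected genes fell along these ranks from 3541 to 2704.5.

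**Figure D5:**
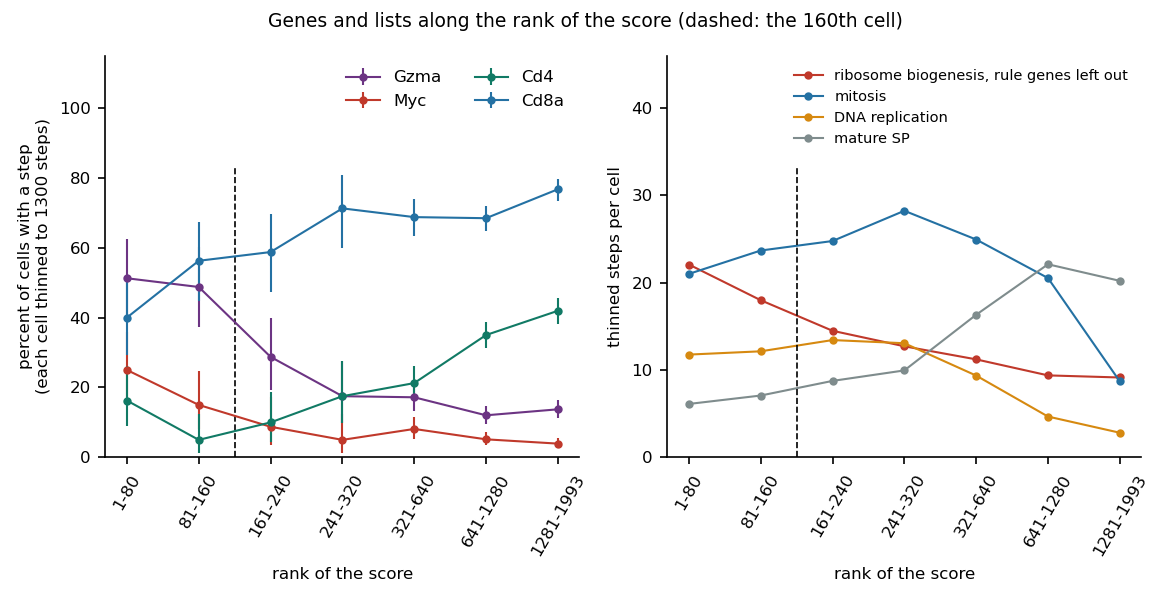
Cells are ranked by the score from highest (left) to lowest and grouped as labelled; the left panel gives the percent of cells with a thinned step for 4 genes with exact binomial 95% intervals, and the right panel the thinned steps per cell of 4 lists. Ribosome biogenesis declines from 22.1 to 9.14 steps across the groups, and Gzma falls from 48.8% to 28.8% across the dashed line after the last blast.

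Sums of markers of other cell types per cell were lower in the blasts than in the rest, which holds such cells. The list of antigen-presenting and B cell genes summed to 2.59 steps per blast (single cells 0 to 10), 1.94 per other cycling cell and 3.60 per cell of the rest (0 to 106), with a median of 2 in each of the 3 groups. In the window the sums per cell were 14.5 in the blasts and 14.7 in other cycling cells at 7700 steps, but 1 of the latter cells held 255 of their 1131 steps, and the medians were 14 and 10. Of its 8 genes tested, Plac8 was higher and H2-Aa lower than in other cycling cells, and Plac8 was higher (2.38) and 5 were lower than in the rest, all 5 with the floor reached through the rest alone. Cd74 had a step in 10.6% of the blasts, 9.86% of other cycling cells and all cells of cluster 16. Genes of nonconventional lymphocytes summed to 0.37 steps per blast (0 to 6), 0.40 per other cycling cell and 1.55 per cell of the rest, with 1 of 4 lower than in other cycling cells and all 4 lower than in the rest, through which alone they reached the floor, and erythroid, granulocyte and stromal genes to 0.16 (0 to 2) and 0.18, with Pecam1 as the 1 gene tested.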

How the data were processed

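Thymocytes were profiled by droplet-based scRNA-seq with a V2 kit for transcript ends. The authors aligned reads with Cell Ranger 1.3.1 to GRCm38.p5, state that they removed ribosomal RNA, mitochondrial RNA and pseudogenes as well as poor cells and rare genes (the table still held 13 mitochondrial genes), and deposited quantile-normalized log2 values with zeros kept. Cell Ranger is also named in the submitters' processing notes. No counts of molecules were used here, so the depth of a cell is known only in steps. The table held 8846 genes in 1993 cells, of which 1986 had at most 4500 detected genes, and 79.7% of values were 0. The scATAC-seq table of the series was not used here.

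The members and gene lists were chosen with earlier results of these data known. Each cell was thinned to 1300 steps with seed 7. Genes entered the calls with at least 200 thinned steps over all cells, so that a gene high only in the 160 blasts could fail it and one nearly absent from them could pass. Some higher genes, such as Timm8a1 and Gnl3, reached this floor only with the steps of the blasts, which favours a high ratio. Named genes were the 5 rule genes, the 4 members of each of 26 lists with the most steps, the 15 highest and lowest ratios against other cycling cells and 8 against the rest, and a fixed list of stage genes; further list members were chosen after their values were seen. Intervals are exact 95% binomial or Poisson intervals, for ratios from the binomial share of steps, and cover counting error only. Clusters were rebuilt with Seurat 5.3.0 in R 4.3.3 (1306 variable genes, 20 principal components, 30 neighbors, resolution 2). Gene coordinates are from GENCODE vM21. Python 3.11.15 with numpy 2.4.6, pandas 2.3.3 and scipy 1.17.1 was used, and figures were drawn with matplotlib 3.10.9. The calls were tested on simulated data. No test between groups was made, since there was 1 library. A stage gene of the fixed list is not reported here.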

Additional observations from a re-analysis of the deposited data

How the results depend on the processing

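No paired analysis was possible because the cells came from 1 library without replicates. The ratios against other cycling cells were followed for 34 genes, the 5 rule genes and those with the 15 highest and lowest ratios. Of their values under 18 alternatives, 566 counted as the same, 46 moved and none reversed. A value counted as the same within the counting interval of the main ratio, but for the log2 difference only its direction was compared. These genes were picked for their extreme ratios or by the rule, so that a reversal was unlikely from the start. Itm2a, Lef1, Gata3 and Rfc4, which are not among the 34, changed direction in the depth window. Of the counts of calls, the shares and the depth of the blasts, 168 values stayed the same and 26 moved. The alternatives that left out members with under 2000 genes, or kept only those of clusters 10 and 15, were chosen after seeing the data. Comparisons are given in the order against other cycling cells, against the rest and inside the blasts. By a log2 difference of 0.5, 194, 542 and 41 were called, 76.3%, 91.9% and 95.1% of them higher. With a floor of 50 steps 2450, 3491 and 2543 were called, 50.5% of the last higher, and with no floor 3537, 4701 and 3506, with 34.2% and 49.7% of the last 2 higher; a lower floor tests more genes. Without thinning, 298 were called inside the blasts, and the blasts had Cd8 without Cd4 in 47.5%, Cd4 in 52.5% and Cd8 in 99.4%. In the depth window 476 were called against other cycling cells and 385 inside the blasts, and Cd8 without Cd4, Cd4 and Cd8 were found in 55.0%, 45.0% and 100% of blasts. Without the 5% deepest cells, which kept 88 of the 160 blasts, 44.3% of the blasts cycled, and with Mki67 or Top2a as the rule 90.0% did. Other causes were not tested. Leaving out 1 rule gene kept 147 or 148 of the 160 cells. Depth limits all thinned shares, and with 1 library the spread between animals is unknown.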
